A study of Mus musculus with 17 samples.

Results

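The genes of endothelial cells and tumor vessels were examined in colorectal tumors of mice with and without Tyk2, a Janus kinase that passes on interferon and interleukin signals. The set held 10 genes of the 55421 in both count tables, taken by symbol and found by Ensembl ID. They were Pecam1, Cdh5, Kdr, Aplnr, Apln, Plvap, Esm1, Sox17, Emcn and Vwf. All 10 were found in both tables, and all 10 passed the filter on low counts in every comparison.

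Endothelial cells line the blood vessels and are held together by junction proteins, among them the products of Pecam1 and Cdh5. New tumor vessels sprout under vascular endothelial growth factor (VEGF), which acts on the receptor encoded by Kdr, and growing vessels are also known for apelin signaling and for Esm1. Capillaries of the gut mucosa are fenestrated, and Plvap forms the diaphragms of their pores.

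Tumors were induced with azoxymethane (AOM), a mutagen, and dextran sulfate sodium (DSS), which injures the colon lining. All mice were of the C57BL/6 background, and all groups had received both agents. The germline experiment held 3 Tyk2KO libraries (Tyk2Δ/Δ, deleted in all cells by way of a CMV-cre strain that was crossed out again) and 3 Tyk2wt libraries (Tyk2+/+). The epithelial experiment held 4 Tyk2DIEC libraries (Tyk2ΔIEC, Tyk2fl/fl with Villin-cre, which is driven by a promoter of the intestinal epithelium and not of endothelium) and 7 Tyk2fl libraries (Tyk2fl/fl without cre). Macrodissected tumors were used, and the sources do not say whether each library came from its own mouse, so that p-values measure the spread between these libraries. Ages were not given in the labels.

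Counts on genes totalled 19129696 to 21707373 in the Tyk2wt, Tyk2KO and Tyk2DIEC libraries and 29777763 to 35427965 in the Tyk2fl libraries. Tyk2 itself had 1020 to 1943 counts in every library, since the floxed part is only a stretch of the gene, and its sum does not check the labels. Xist was counted 40656 to 45446 times in Tyk2fl replicates 1 to 3 and at most 106 times in the other 14 libraries. Epithelial differences are therefore also given with replicates 4 to 7 as the only controls where that ended a call. The comparison between the experiments and that between both control groups were not repeated this way. Tyk2fl replicates 1 to 3 are therefore part of both. Of the markers of other cells, 7 of 10 smooth muscle, 3 of 10 leukocyte and 2 of 5 red cell genes were lower in Tyk2KO than in Tyk2wt tumors, and 6 of 10 fibroblast genes were lower in Tyk2DIEC than in Tyk2fl tumors. Leaving out 1 library gave 0 to 7 smooth muscle, 0 to 4 leukocyte and 0 to 2 red cell calls in Tyk2KO and 4 to 7 fibroblast calls in Tyk2DIEC tumors; the libraries are named with these lists.

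Per length of transcript, and as means over all libraries, Plvap and Sox17 were the most abundant of the 10 genes and Emcn the least. In RPKM, reads scaled by exon length and library size, the mean level over 17 libraries was 14.4 for Plvap, 9.82 for Sox17, 5.15 for Cdh5 and 4.26 for Pecam1. Apln (2.92), Esm1 (2.33), Aplnr (2.08), Kdr (1.46), Vwf (1.41) and Emcn (1.17) followed. The order was not the same in every group: in Tyk2DIEC the mean RPKM of Sox17 (15.6) was above that of Plvap (12.9), and in Tyk2KO that of Vwf (1.17) was below that of Emcn (1.29). Every gene was counted at least 57 times in every library (Esm1 in Tyk2DIEC replicate 2), where counting error alone is 13.2%. Further values are CPM, counts scaled to library size with TMM, a trimmed mean of log ratios, which are not corrected for length and are compared only within a gene, or log2 differences from edgeR.

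**Figure D1:**
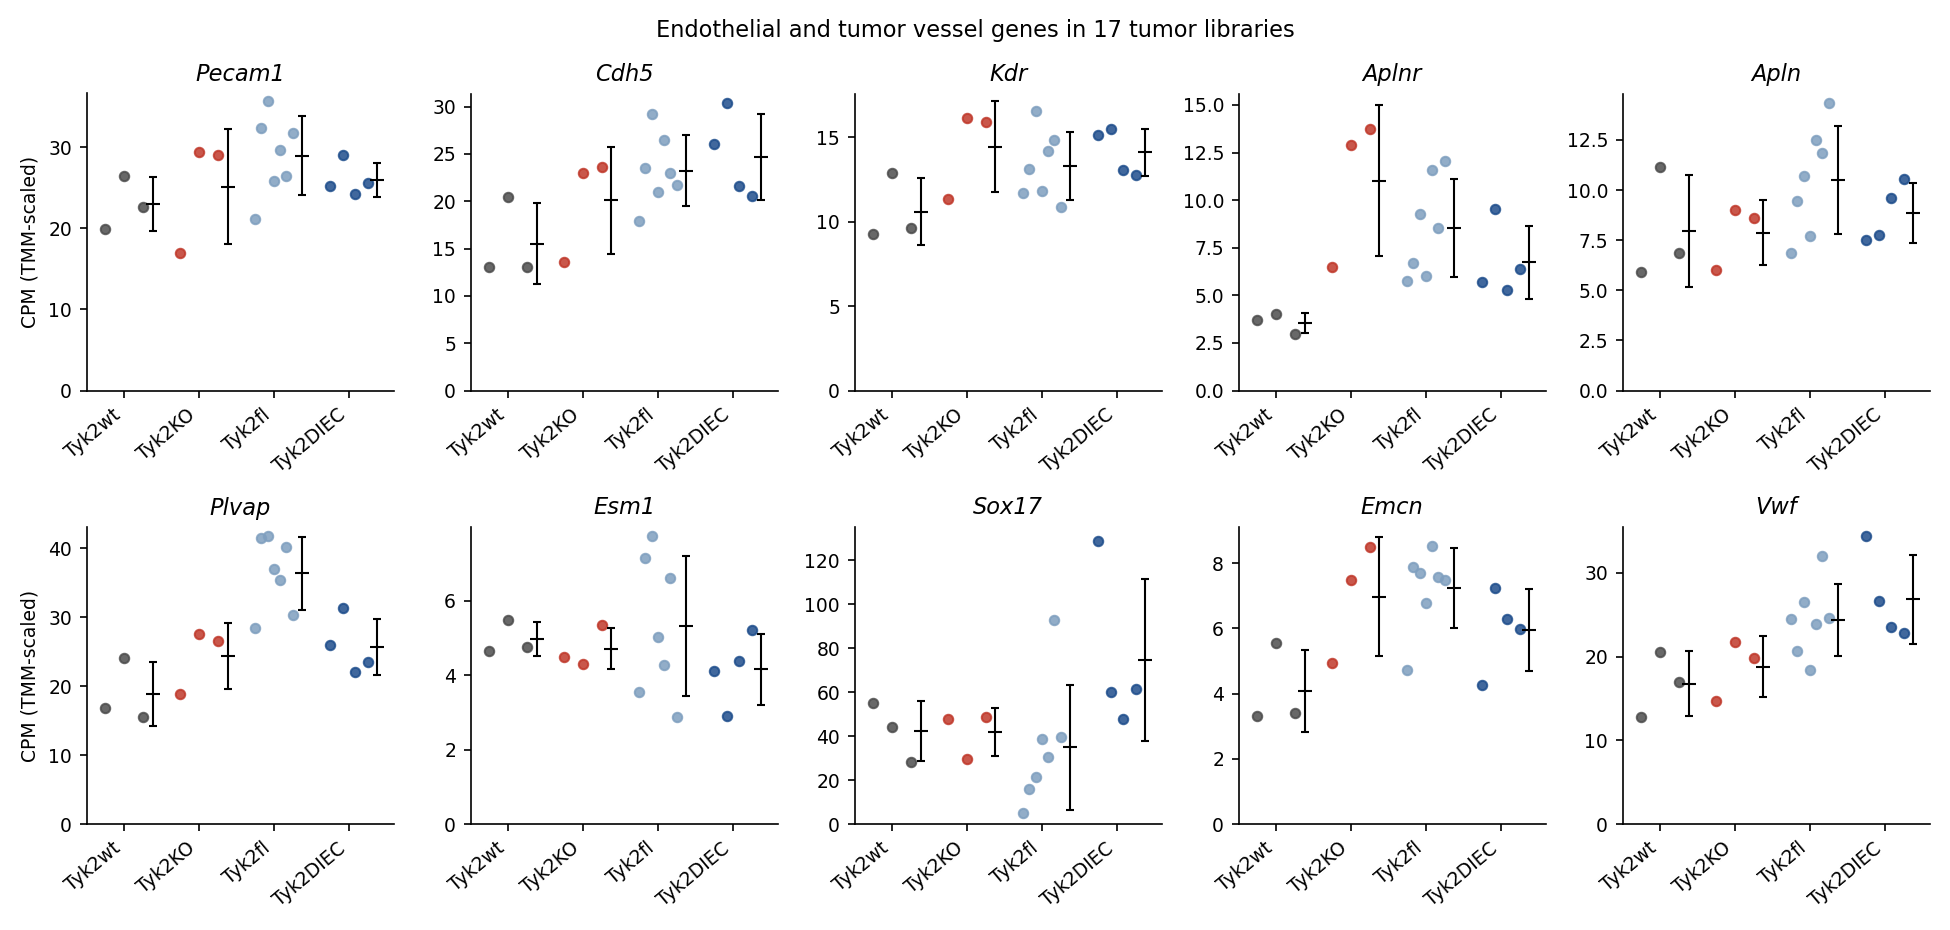
CPM (TMM-scaled, linear axis from 0) of the 10 genes in each library of the 4 groups; points are libraries, dash and bar the mean ± SD. Aplnr in Tyk2wt lies at 2.98 to 4.001 CPM, below all other libraries, and Sox17 spreads from 5.21 to 92.7 CPM within Tyk2fl.

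To show the start regions of genes from both patterns, the promoter windows of Kdr and Emcn, whose levels followed other endothelial genes within groups, are set beside that of Esm1, whose level followed them less (correlations are given with the co-variation of the genes). They run from 250 bases before to 50 bases after the RefSeq start (GRCm38.p6), 5′ to 3′ on the strand of the gene. Capitals mark GGAA or TTCC, the core of ETS factor motifs on either strand. The windows are chr5:75978406-75978705 (minus strand), chr3:137340828-137341127 (plus strand) and chr13:113209409-113209708 (plus strand).
Kdr: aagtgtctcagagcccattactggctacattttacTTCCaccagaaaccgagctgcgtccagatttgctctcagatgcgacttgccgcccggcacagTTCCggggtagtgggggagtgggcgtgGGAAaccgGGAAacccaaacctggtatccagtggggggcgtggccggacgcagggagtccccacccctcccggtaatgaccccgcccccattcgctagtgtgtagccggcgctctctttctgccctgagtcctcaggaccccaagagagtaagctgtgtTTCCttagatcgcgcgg
Emcn: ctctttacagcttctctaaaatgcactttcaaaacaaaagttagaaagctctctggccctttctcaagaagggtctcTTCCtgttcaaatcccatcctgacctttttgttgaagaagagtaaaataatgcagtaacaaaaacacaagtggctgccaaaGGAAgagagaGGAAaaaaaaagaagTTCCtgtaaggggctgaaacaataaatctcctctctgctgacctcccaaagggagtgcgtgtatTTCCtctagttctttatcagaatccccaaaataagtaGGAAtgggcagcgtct
Esm1: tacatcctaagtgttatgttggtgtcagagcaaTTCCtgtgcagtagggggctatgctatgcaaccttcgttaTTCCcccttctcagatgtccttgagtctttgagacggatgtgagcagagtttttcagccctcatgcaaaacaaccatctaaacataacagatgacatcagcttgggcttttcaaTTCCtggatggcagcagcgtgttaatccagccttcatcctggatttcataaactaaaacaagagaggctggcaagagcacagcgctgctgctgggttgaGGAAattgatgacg
The core was found 5 times in the window of Kdr, 6 times in that of Emcn and 4 times in that of Esm1, and 4 times in the window of Apln, the only other member in the table. It stands in 96% of all 32851 promoter windows, with a median of 3. The longer ETS sequence CCGGAAG (8.86% of all windows) and ACGTG, the core of hypoxia-inducible factor motifs (19.6%), were in none of the 4, and ACAAT, a core of SOX motifs (31%), was in that of Emcn once. The GC content was 60.7% for Kdr, 41% for Emcn and 46.3% for Esm1, with a median of 52.7% over all windows. Matches of letters are descriptions and not sites of binding.

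In Tyk2KO tumors 1 of the 10 genes, Aplnr, passed the test (adjusted p under 0.05, edgeR), and it was higher. Among all 16179 genes tested 2.8% passed, 0.668% were higher and 0.0927% were higher by more than 2-fold, which Aplnr also was. In 7 of the 10 genes the estimate was above 0, with a median log2 difference of 0.26 against 0.004 over all genes. An unadjusted p under 0.05 (edgeR) was found for 3 of the 10 genes and for 3681 of all 16179 genes tested. The CPM ranges of both groups were apart for 1 member, again Aplnr, and for 28.7% of all genes.

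In Tyk2DIEC tumors 1 of the 10 genes, Plvap, passed, and it was lower. Here 19.9% of 17668 genes passed and 9.71% were lower, so that 1 call among 10 was no larger a share than among all genes. None of the 10 genes passed with a change of over 2-fold, which 3.12% of all genes did. The median log2 difference of the 10 genes was -0.20 against -0.003 over all genes, 6 estimates were below 0, and no member had separate CPM ranges (15.5% of all genes had).

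Tested against each other in 1 fit of all 17 libraries, the changes in the 2 experiments differed for 2 genes, Aplnr and Plvap. In both the log2 change in Tyk2DIEC minus that in Tyk2KO was negative, a call that 2.73% of all 17252 genes received. In 9 of the 10 genes the estimate of this difference was below 0, Sox17 being the exception, with a median of -0.29 against -0.012 over all genes.

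**Figure D2:**
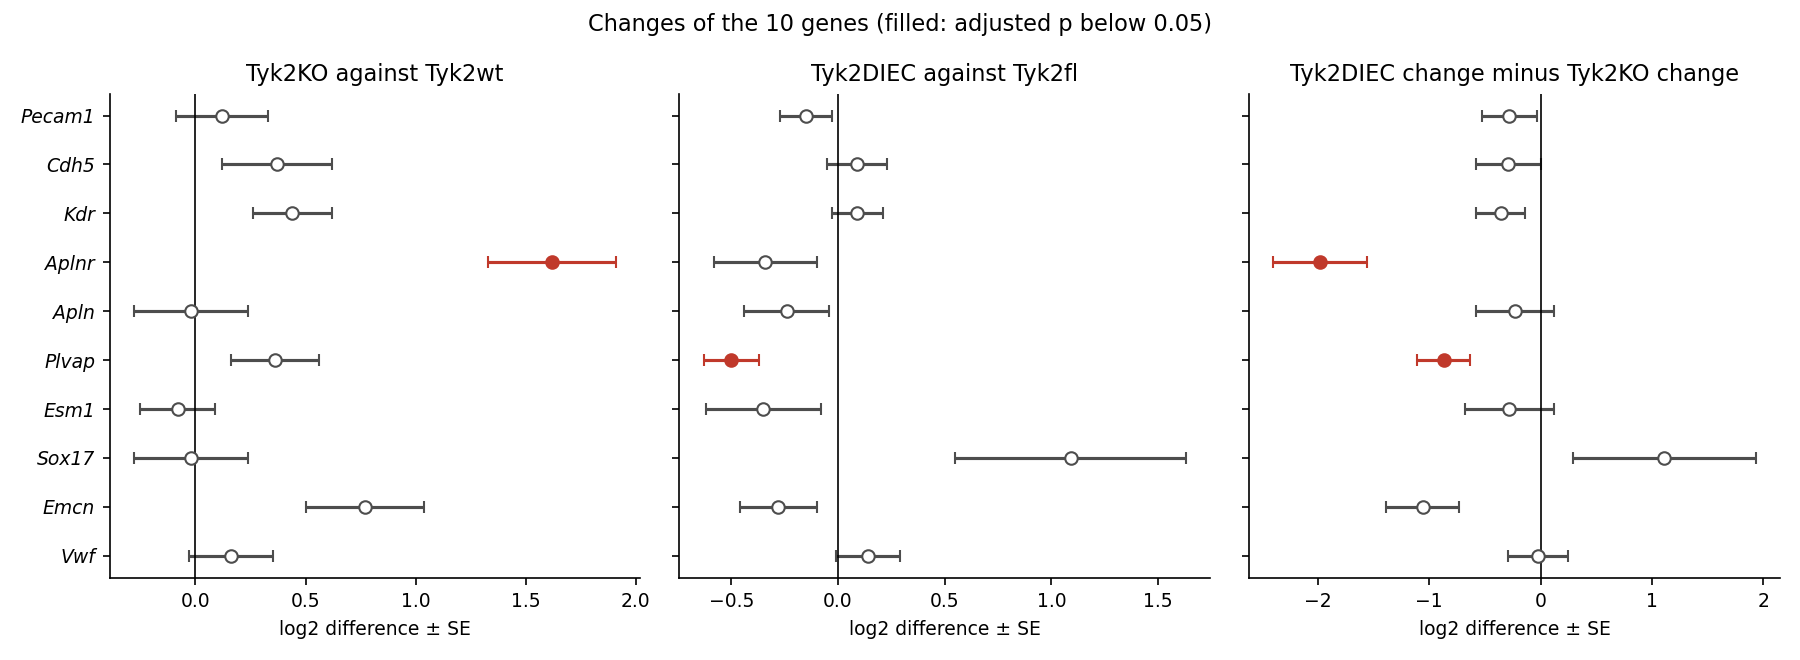
Log2 difference ± SE of the 10 genes for Tyk2KO against Tyk2wt, Tyk2DIEC against Tyk2fl, and the difference of these changes (edgeR); filled points passed. Aplnr stands at 1.62 in the first and -1.98 in the third panel, Plvap at -0.50 in the second and -0.87 in the third; each panel has its own scale.

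Aplnr (ENSMUSG00000044338.9, chr2:85136225-85139923, plus strand, GRCm38) encodes the apelin receptor, a G protein-coupled receptor of sprouting and venous endothelium. It was measured at 3.69, 4.001 and 2.98 CPM in Tyk2wt and at 6.47, 12.9 and 13.7 CPM in Tyk2KO replicates 1 to 3, from 62 to 78 and 140 to 292 counts. The lowest Tyk2KO library thus stood above the highest Tyk2wt library. The means were 3.56 ± 0.522 (SD, n = 3) and 11.0 ± 3.97 CPM (SD, n = 3), a 3.08-fold difference (log2 1.62, SE 0.29, adjusted p = 0.0297, edgeR).

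This call rested on few libraries. Leaving out each of the 6 libraries in turn, Aplnr remained higher by 1.44 to 1.90 on the log2 scale, but passed in 2 of 6 fits only. It was lost without Tyk2wt replicate 1 (adjusted p = 0.0633, edgeR) or 3 (0.129), or Tyk2KO replicate 2 (0.118) or 3 (0.0636). Of all genes 114 to 822 passed in these fits, against 453 with all 6 libraries. With DESeq2, which the study used, the log2 difference was 1.63 (adjusted p = 1.72e-06, DESeq2). Over all alternatives the adjusted p ran from that value to 0.129. The study's supplement also lists Aplnr as more than 2-fold higher in Tyk2Δ/Δ tumors.

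In the epithelial experiment Aplnr was at 5.74, 8.55 and 12.1 CPM (lowest, median, highest of 7 Tyk2fl libraries) and at 5.69, 9.55, 5.29 and 6.40 CPM in Tyk2DIEC replicates 1 to 4. The groups overlapped throughout, and the log2 difference of -0.34 (SE 0.24) did not pass (adjusted p = 0.343, edgeR). The change in Tyk2DIEC minus the change in Tyk2KO was -1.98 (SE 0.42, adjusted p = 0.00871, edgeR), and it passed in 17 of 17 fits that left out a library. It missed the threshold with the replicate number as a block (-1.62, adjusted p = 0.0557, edgeR; 0.000106 to 0.0557 over all alternatives).

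The order of Aplnr levels was Tyk2wt, Tyk2DIEC, Tyk2fl and Tyk2KO. Only the step from Tyk2wt to Tyk2DIEC lay between groups whose libraries did not overlap. The low end was therefore the Tyk2wt group, and both groups with intact Tyk2 differed from each other: Tyk2fl exceeded Tyk2wt by 1.27 (log2, SE 0.30, adjusted p = 0.0123, edgeR). Experiment and genotype cannot be told apart in that comparison.

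Apln (ENSMUSG00000037010.7, chrX:48025146-48034853, minus strand) encodes apelin, the ligand of this receptor, and is known as a gene of tip cells. It was at 5.89, 11.1 and 6.88 CPM in Tyk2wt and at 6.01, 9.03 and 8.60 CPM in Tyk2KO tumors, where the log2 difference was -0.02 (SE 0.26, adjusted p = 0.972, edgeR). Tyk2fl libraries ranged from 6.85 over a median of 10.7 to 14.4 CPM and Tyk2DIEC libraries held 7.50, 7.76, 9.62 and 10.6 CPM. The groups overlapped in both experiments, and the epithelial difference of -0.24 (SE 0.20) did not pass either. Apln lies on the X chromosome, and with Xist as a covariate its epithelial difference was -0.45 (adjusted p = 0.158, edgeR; 0.158 to 0.888 over all alternatives). Receptor and ligand thus had unlike estimates in Tyk2KO tumors, 1.62 and -0.02; the difference between these estimates was not tested.

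Plvap (ENSMUSG00000034845.6, chr8:71497765-71511752, minus strand) encodes the diaphragm protein of fenestrated capillaries. In Tyk2fl libraries it ranged from 28.5 over a median of 37.1 to 41.7 CPM, and Tyk2DIEC replicates 1 to 4 held 26.0, 31.3, 22.0 and 23.6 CPM. Tyk2DIEC replicate 2 was above the 2 lowest Tyk2fl libraries, and the other three Tyk2DIEC libraries were below all Tyk2fl libraries. The means were 36.4 ± 5.32 (SD, n = 7) and 25.7 ± 4.06 CPM (SD, n = 4), a difference of -0.50 on the log2 scale or 1.41-fold (SE 0.13, adjusted p = 0.0179, edgeR).

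Plvap passed in 10 of 11 fits that left out a library, with log2 differences of -0.62 to -0.45. Without Tyk2DIEC replicate 3 the adjusted p was 0.0643 (edgeR; 0.00259 to 0.0643 over all alternatives). With Tyk2fl replicates 4 to 7 as controls the difference was -0.49 (adjusted p = 0.0232, edgeR). The gene span of Plvap overlaps that of Gtpbp3 on the other strand, and Gtpbp3 had 522 to 1017 counts; the strand setting of the counting is not given in the sources used here.

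In the germline experiment Plvap was at 16.9, 24.1 and 15.5 CPM in Tyk2wt and at 18.9, 27.6 and 26.6 CPM in Tyk2KO. These ranges overlapped, and the log2 difference of 0.36 (SE 0.20) did not pass (adjusted p = 0.309, edgeR). The change in Tyk2DIEC minus that in Tyk2KO was -0.87 (SE 0.24, adjusted p = 0.0365, edgeR). That call passed in 9 of 17 fits that left out a library, with adjusted p from 0.013 to 0.11, and was lost without Tyk2wt replicates 1 or 3, Tyk2KO replicates 2 or 3, Tyk2DIEC replicates 3 or 4, or Tyk2fl replicates 2 or 6.

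Plvap was also the member that set both control groups apart most clearly by p. All 7 Tyk2fl libraries exceeded all 3 Tyk2wt libraries, and the log2 difference was 0.95 (SE 0.17, adjusted p = 0.00313, edgeR). In all, 3 of the 10 genes were higher in Tyk2fl than in Tyk2wt (Plvap, Aplnr and Emcn), a call of 5.49% of all genes, and 2 of them (Plvap and Aplnr) had separate ranges, as did 13% of all genes.

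Emcn (ENSMUSG00000054690.17, chr3:137341067-137432185, plus strand) encodes endomucin, a sialomucin of capillary and venous endothelium. It was at 3.30, 5.54 and 3.42 CPM in Tyk2wt and at 4.95, 7.49 and 8.50 CPM in Tyk2KO replicates 1 to 3. Tyk2wt replicate 2 stood above Tyk2KO replicate 1, and the log2 difference of 0.77 (SE 0.27), the second largest of the 10 genes, did not pass (adjusted p = 0.149, edgeR). Tyk2fl libraries ranged from 4.74 over 7.56 to 8.52 CPM and Tyk2DIEC libraries held 4.25, 7.25, 6.30 and 5.99 CPM, a difference of -0.28 (SE 0.18) that did not pass. The difference of the changes was -1.06 (SE 0.33) with an adjusted p of 0.0553 (edgeR), and it passed with DESeq2 (0.0198; 0.0198 to 0.149 over all alternatives).

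Kdr (ENSMUSG00000062960.10, chr5:75932827-75978458, minus strand) encodes VEGF receptor-2. It was at 9.29, 12.9 and 9.62 CPM in Tyk2wt and at 11.3, 16.1 and 15.9 CPM in Tyk2KO, where the log2 difference was 0.44 (SE 0.18, adjusted p = 0.197, edgeR). Tyk2fl ranged from 10.9 over 13.1 to 16.5 CPM and Tyk2DIEC from 12.8 to 15.5 CPM, so that the groups overlapped in both experiments. Kdr varied the least, with at most 1.52-fold between the highest and the lowest library of any group.

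Pecam1 (ENSMUSG00000020717.19, chr11:106654217-106750628, minus strand), an adhesion molecule also found on platelets and leukocytes, was at 19.9, 26.5 and 22.7 CPM in Tyk2wt and at 16.96, 29.4 and 29.0 CPM in Tyk2KO. The log2 differences were 0.12 (SE 0.21) in Tyk2KO and -0.15 (SE 0.12) in Tyk2DIEC tumors, and neither passed. Cdh5 (ENSMUSG00000031871.9, chr8:104101625-104144511, plus strand) encodes VE-cadherin, the cadherin of endothelial junctions. It was at 13.03, 20.5 and 13.1 CPM in Tyk2wt and at 13.6, 23.02 and 23.6 CPM in Tyk2KO, with log2 differences of 0.37 (SE 0.25) and, in Tyk2DIEC, 0.09 (SE 0.14) that did not pass. For both genes Tyk2KO replicate 1 lay among or below the Tyk2wt libraries while replicates 2 and 3 were higher. The same library was the lowest of its group for Kdr, Aplnr, Apln, Plvap, Emcn and Vwf.

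Vwf (ENSMUSG00000001930.17, chr6:125546774-125686679, plus strand) encodes von Willebrand factor, which binds platelets at injured vessels and is also made by megakaryocytes. It was at 12.8, 20.5 and 16.98 CPM in Tyk2wt, at 14.7, 21.7 and 19.9 CPM in Tyk2KO, and at 34.4, 26.7, 23.5 and 22.8 CPM in Tyk2DIEC replicates 1 to 4. Tyk2fl ranged from 18.4 over 24.5 to 32.0 CPM. The groups overlapped in both experiments, and the log2 differences of 0.16 (SE 0.19) and 0.14 (SE 0.15) did not pass. The summed level of 8 platelet and megakaryocyte genes was 12.6 to 27.1 CPM in Tyk2wt, 11.9 to 112 CPM in Tyk2KO, 9.11 to 21.3 CPM in Tyk2fl and 11.1 to 41.8 CPM in Tyk2DIEC. Of these genes 3 or 4 passed the filter on low counts, and Gp6, a collagen receptor of platelets, was at 0 in all Tyk2KO libraries. The 3 genes tested in Tyk2KO had a median log2 difference of 0.04 and none passed, with Ppbp at 2.91 (adjusted p = 0.159, edgeR).

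Esm1 (ENSMUSG00000042379.8, chr13:113209659-113218098, plus strand) encodes endocan, a secreted proteoglycan known from tip cells. It was at 4.65, 5.49 and 4.76 CPM in Tyk2wt and at 4.48, 4.32 and 5.36 CPM in Tyk2KO, where the log2 difference was -0.08 (SE 0.17, adjusted p = 0.813, edgeR). Tyk2fl ranged from 2.88 over 5.02 to 7.74 CPM and Tyk2DIEC replicates 1 to 4 held 4.11, 2.91, 4.38 and 5.23 CPM. The groups overlapped, and the difference of -0.35 (SE 0.27) did not pass.

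Sox17 (ENSMUSG00000025902.13, chr1:4490931-4497354, minus strand) encodes a transcription factor of arterial endothelium and of definitive endoderm. It was at 55.2, 44.3 and 28.1 CPM in Tyk2wt and at 47.8, 29.4 and 48.9 CPM in Tyk2KO, with a log2 difference of -0.02 (SE 0.26). Tyk2fl libraries ranged from 5.21 over 30.6 to 92.7 CPM, a 17.8-fold span, and Tyk2DIEC replicates 1 to 4 held 129, 59.9, 47.9 and 61.3 CPM. No other member spanned more than 2.69-fold within a group. Despite the largest estimate of the epithelial experiment, a log2 difference of 1.09, its SE was 0.54 and it did not pass (adjusted p = 0.173, edgeR).

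The Sox17 estimate moved with single control libraries. Without Tyk2fl replicate 6, the highest control, the difference was 1.55 and passed (adjusted p = 0.0382, edgeR; 0.0382 to 0.639 over all alternatives). Tyk2fl replicates 1 to 3, which had the high Xist counts, held 5.21 to 21.5 CPM of Sox17, below the 30.6 to 92.7 CPM of replicates 4 to 7. With replicates 4 to 7 as controls the difference was 0.55 (adjusted p = 0.347, edgeR), and with Xist as a covariate 0.34 (adjusted p = 0.639, edgeR). For the other nine members, replicates 1 to 3 and 4 to 7 of Tyk2fl overlapped.

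To set each gene against other endothelial genes, its CPM was divided by the geometric mean CPM of 21 pan-endothelial genes, among them Tie1, Tek, Erg and Eng, none of which is a member. This mean was 5.99 to 7.30 CPM in Tyk2wt, 6.02 to 9.46 in Tyk2KO, 6.59 to 10.5 in Tyk2fl and 7.19 to 8.43 in Tyk2DIEC, and the groups overlapped. In bulk tumor RNA fewer cells of a type and less RNA per cell cannot be told apart, and the ratio only shows how a gene moved relative to this list.

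Relative to the list, Aplnr was -1.05 to -0.70 (log2) in Tyk2wt and 0.10 to 0.61 in Tyk2KO. The groups were apart, and the mean difference was 1.26, or 1.34 with Pecam1 and Cdh5 as the reference. Plvap was 1.71 to 2.31 in Tyk2fl and 1.61 to 1.89 in Tyk2DIEC, which overlapped at a mean difference of -0.34, or -0.47 with the other reference. Emcn was -0.86 to -0.40 in Tyk2wt and -0.34 to -0.08 in Tyk2KO, apart at a difference of 0.47. Pecam1 and Esm1 were apart in the other direction, at -0.22 and -0.39. Between Tyk2wt and Tyk2KO the CPM ranges were apart for 28.7% of all genes, so separate ranges alone do not single out a gene. The share of all genes with separate ratios was not counted. These ratios are descriptions and were not tested.

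**Figure D3:**
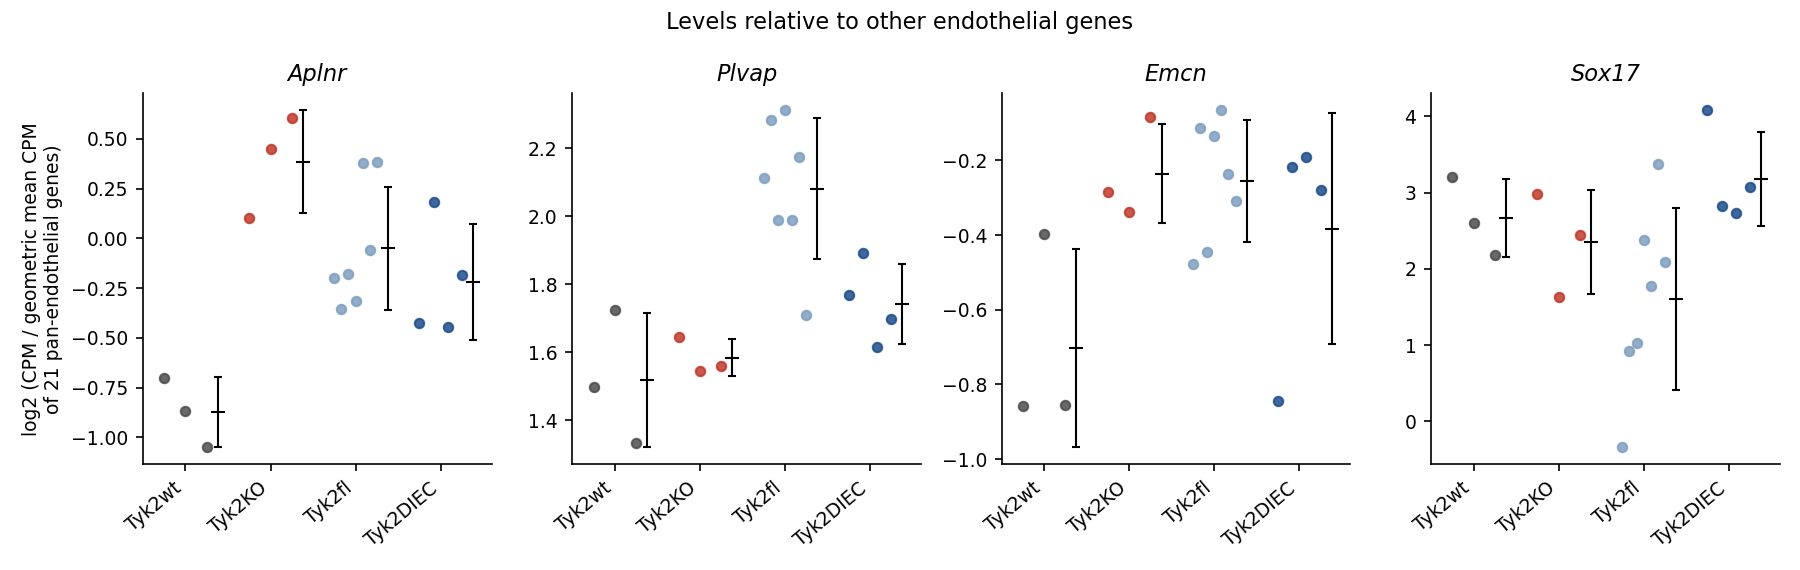
Log2 ratio of Aplnr, Plvap, Emcn and Sox17 to the geometric mean CPM of 21 pan-endothelial genes, by library and group; points are libraries, dash and bar the mean ± SD. Aplnr is apart between Tyk2wt (-1.05 to -0.70) and Tyk2KO (0.10 to 0.61), whereas Plvap overlaps between Tyk2fl and Tyk2DIEC.

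Within groups most of the 10 genes rose and fell together from library to library. With each group centred on its mean, the log2 CPM of Cdh5 correlated over 17 libraries with Kdr (Pearson r 0.91), Plvap (0.88) and Pecam1 (0.86). Pecam1 (0.95), Cdh5 (0.90), Aplnr (0.82), Kdr (0.79), Emcn (0.77), Plvap (0.75), Apln (0.70) and Vwf (0.59) followed the mean of the pan-endothelial list. Esm1 (0.22) and Sox17 (0.27) followed it least. Without the 2 libraries farthest from the median these values were 0.88, 0.84, 0.71, 0.75, 0.56, 0.60, 0.54 and 0.66, and 0.02 and -0.09 for Esm1 and Sox17. Of the genes whose promoter windows are printed, Kdr and Emcn followed the endothelial list and Esm1 followed it less. Both values of a point share their library and its depth, so the values are descriptions.

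**Figure D4:**
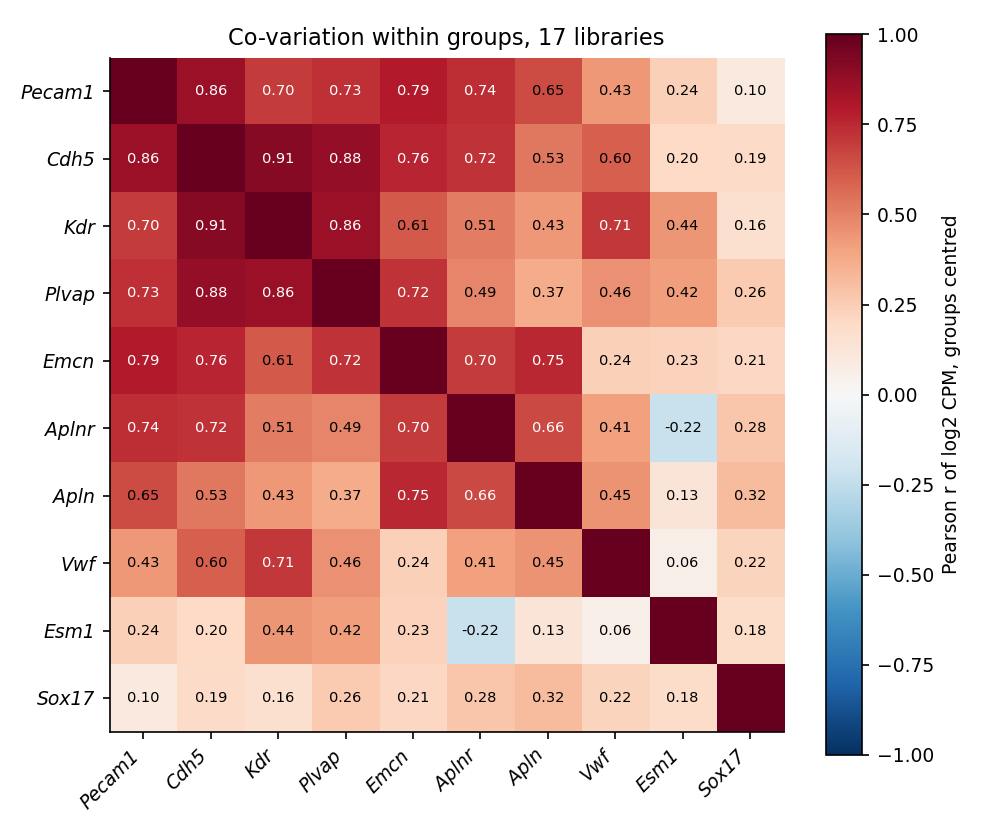
Pearson r between the 10 genes, from log2 CPM of 17 libraries with each of the 4 groups centred on its mean; color runs from -1 (blue) to 1 (red). Pecam1, Cdh5, Kdr, Plvap and Emcn form a block from 0.61 to 0.91, whereas Sox17 stays at 0.10 to 0.32 with all others and Esm1 at -0.22 to 0.44.

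By the same measure the nearest genes of Pecam1 were Tie1 (0.97), Lrrc32 (0.93) and Loxl2 (0.92), and those of Plvap were Eng (0.94), Kirrel (0.90) and Col4a1 (0.89). For Cdh5 they were Col6a3 (0.94), Adgrf5 (0.93) and Vwa1 (0.92), for Kdr they were Cdh5 and Nav3 (0.91 each) and Col6a3 (0.90), and for Emcn they were Cd93 and Cd34 (0.85 each) and Col15a1 (0.84). Tie1, Eng, Cd93 and Cd34 are endothelial genes of the fixed list, and Col6a3, Col4a1 and Col15a1 encode collagens of the matrix and of basement membranes. Aplnr was nearest to Col1a2 (0.87), a fibrillar collagen, and to Emp3 and Fstl1 (0.85 each). Apln was nearest to Meox1 (0.88), 4930502E18Rik (0.83) and Rit1 (0.82), and Vwf to Pcyt2 (0.83), Stat5a and Iffo1 (0.82 each).

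Esm1 and Sox17 had neighbors of other kinds. Esm1 was nearest to Clu and P4ha1 (0.90 each) and Gga2 (0.88), where P4ha1 encodes a collagen prolyl hydroxylase of the hypoxia list. Among the list means Esm1 followed that of capillary genes most, at 0.60 (0.42 without the 2 farthest libraries). Pericyte genes were at 0.57 (0.54), hypoxia genes at 0.44 (0.26) and smooth muscle genes at 0.41 (0.60). Sox17 was nearest to Ihh (0.95), the hedgehog ligand of the gut epithelium, to Irx4 and to Gm7357 (0.92 each). For Ihh the Spearman rho was 0.83, and r was 0.82 without the 2 libraries farthest from the median. Ihh was at 20.5 CPM in Tyk2fl replicate 1, where Sox17 was lowest, and at 90.2 and 90.8 CPM in Tyk2fl replicate 6 and Tyk2DIEC replicate 1, where Sox17 was highest. Sox17 correlated with the mean of 9 arterial genes at 0.69 (0.45 without the 2 farthest libraries) and with that of 10 epithelial genes at 0.17. The arterial value was not particular to that list. It was 0.68 (0.17) for red cell, 0.53 (0.45) for smooth muscle and 0.46 (0.64) for hypoxia genes. The venous and platelet lists were at -0.45 and -0.43.

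**Figure D5:**
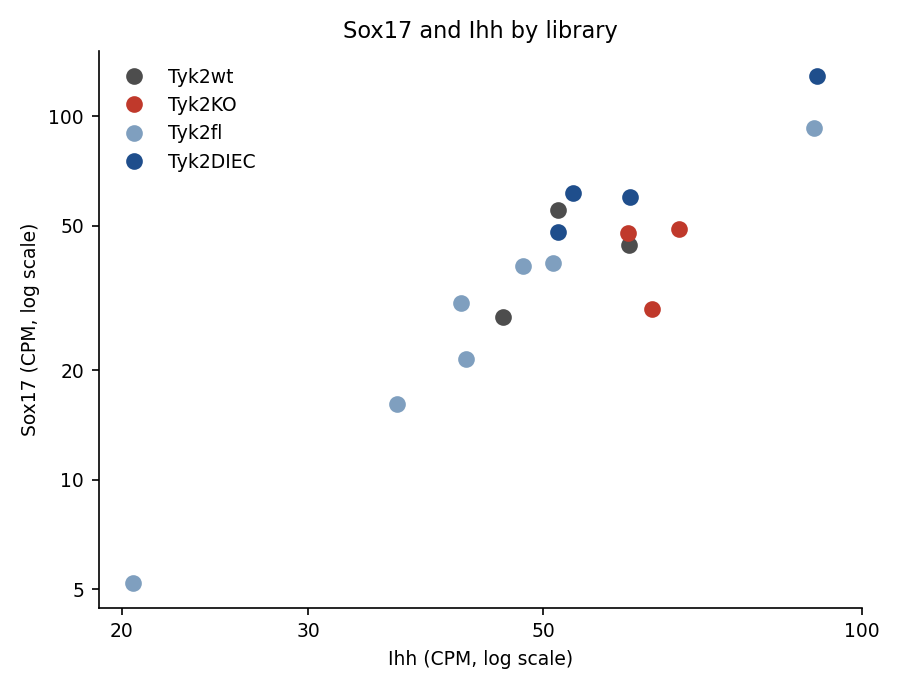
Sox17 against Ihh in CPM, both axes on a log scale, 1 point per library in the colors of the 4 groups. Tyk2fl replicate 1 lies at the lower left (5.21 and 20.5 CPM), and Tyk2fl replicate 6 and Tyk2DIEC replicate 1 at the upper right (92.7 and 129 CPM of Sox17).

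The counts of the gene lists that follow are to be read against all genes tested, of which 2.13% were lower and 0.668% higher in Tyk2KO and 9.71% lower and 10.2% higher in Tyk2DIEC tumors (2.8% and 19.9% in either direction). With so few genes in each list, 1 to 4 calls in Tyk2DIEC tumors cannot be set apart from these shares.

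The fixed list of 21 pan-endothelial genes showed no call in Tyk2KO tumors, where 17 of 21 estimates were above 0 with a median of 0.31 (log2; 0.004 over all genes). The smallest p was that of Ecscr at -0.30 (SE 0.07, adjusted p = 0.0656, edgeR). In Tyk2DIEC tumors 1 gene was higher and 2 were lower, with a median of -0.19. Tek, the receptor of angiopoietins, was higher by 0.57 (SE 0.15), and the junction genes Esam (-0.65, SE 0.11) and Rasip1 (-0.70, SE 0.14) were lower. Esam and Rasip1 passed in 11 of 11 fits that left out a library. Tek did not pass with Tyk2fl replicates 4 to 7 as controls (0.51, adjusted p = 0.0632, edgeR; 0.00245 to 0.0833 over all alternatives), nor without Tyk2DIEC replicate 1 (0.0501) or 3 (0.0833).

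Ligands and receptors of the VEGF and angiopoietin pathway had no call among 13 genes in Tyk2KO tumors (smallest p: Vegfc, -0.58, SE 0.19, adjusted p = 0.128, edgeR). In Tyk2DIEC tumors Tek and Vegfd, a ligand of VEGF receptors (1.07, SE 0.30), were higher and the ligand Vegfb (-0.37, SE 0.11) was lower. Vegfd stood at 1.15 ± 0.402 (SD, n = 7) and 2.39 ± 0.846 CPM (SD, n = 4). Its call was lost with Tyk2fl replicates 4 to 7 as controls (0.98, adjusted p = 0.0896, edgeR; 0.00559 to 0.126 over all alternatives) and without Tyk2DIEC replicate 2 (0.0537), 3 (0.126) or 4 (0.0516). That of Vegfb was lost without Tyk2DIEC replicate 2 (adjusted p = 0.0979, edgeR; 0.0127 to 0.144 over all alternatives), 3 (0.06) or 4 (0.0847) or Tyk2fl replicate 2 (0.0502) or 4 (0.0577).

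Of the tip cell and Notch list 2 of 13 genes tested were higher in Tyk2KO tumors, the Notch ligand Dll4 (0.39, SE 0.07) and the receptor Notch1 (0.35, SE 0.06). Both were lost in the fit of all 17 libraries (adjusted p = 0.212 and 0.186, edgeR, the highest over all alternatives). Each passed in 2 of 6 fits that left out a library, and both were lost without Tyk2wt replicate 3 or Tyk2KO replicate 1 or 2, Dll4 also without Tyk2KO replicate 3 and Notch1 without Tyk2wt replicate 1. In Tyk2DIEC tumors 3 of 14 genes were higher and 1 was lower. Notch1 (0.53, SE 0.12), the netrin receptor Unc5b (0.67, SE 0.17) and the ligand Dll1 (0.53, SE 0.14) were higher and Igfbp3 (-0.46, SE 0.11) was lower. Unc5b (0.58, adjusted p = 0.0852, edgeR) and Dll1 (0.42, 0.0967) did not pass with Tyk2fl replicates 4 to 7 as controls, nor without Tyk2DIEC replicates 2 or 3, and Dll1 was also lost without replicate 1. Notch1, Dll1 and Dll4 are also made by epithelial cells of the gut.

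Among 9 arterial genes Dll4 was the only call in Tyk2KO, and Sema3g (-0.67, SE 0.18) and the connexin gene Gja5 (-1.04, SE 0.30) were lower in Tyk2DIEC tumors. Both were lost without Tyk2DIEC replicate 3 (adjusted p = 0.0734 and 0.0848, edgeR) or 4 (0.0636 and 0.0732). Gja5 was also lost with Xist as a covariate (adjusted p = 0.0666, edgeR). Among 8 capillary genes Ly6c1 (-1.05, SE 0.19) and the fatty acid binding protein gene Fabp4 (-0.76, SE 0.16) were lower and Gpihbp1, which anchors lipoprotein lipase on capillaries, was higher (0.91, SE 0.19) in Tyk2KO tumors. Rgcc was lower in Tyk2DIEC tumors (-1.07, SE 0.18). Fabp4 and Gpihbp1 passed in 0 of 6 fits that left out a library, and Ly6c1 in 3 of 6 (lost without Tyk2wt replicate 3 or Tyk2KO replicate 1 or 2). Rgcc passed in 11 of 11.

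Among 8 genes of venous and inflamed endothelium none passed in Tyk2KO tumors (smallest p: Ephb4, 0.26, SE 0.06, adjusted p = 0.0605, edgeR). In Tyk2DIEC tumors the ephrin receptor gene Ephb4 was higher (0.31, SE 0.07) and Lrg1 was lower (-1.05, SE 0.33). Lrg1 was lost with Tyk2fl replicates 4 to 7 as controls (-1.16, adjusted p = 0.0504, edgeR; 0.0144 to 0.272 over all alternatives), and it passed in 4 of 11 fits that left out a library, with losses without Tyk2DIEC replicates 1, 2 or 3 or Tyk2fl replicates 1, 2, 6 or 7. Ephb4 was lost without Tyk2DIEC replicate 2 (adjusted p = 0.0622, edgeR; 0.00195 to 0.0662 over all alternatives) or 3 (0.0536) and with Xist as a covariate (0.0572). Of 6 lymphatic genes tested Lyve1, a hyaluronan receptor, was lower in Tyk2KO (-1.0, SE 0.21) and Pdpn, podoplanin, in Tyk2DIEC tumors (-0.59, SE 0.14). Ccl21a was at 0 in all libraries. In Tyk2KO 5 of the 6 estimates were below 0 (median -0.09), whereas in Tyk2DIEC 5 of the 6 were above 0 (median 0.44). Lyve1 passed in 1 of 6 fits that left out a library, that without Tyk2wt replicate 1, and had an adjusted p of 0.216 (edgeR) in the fit of all 17 libraries (0.000497 to 0.216 over all alternatives). Pdpn passed in 11 of 11 fits that left out a library but not with Xist as a covariate (0.0548).

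Pericytes, which wrap capillaries, had no call among 9 genes tested in Tyk2KO (smallest p: Notch3, 0.49, SE 0.21, adjusted p = 0.213, edgeR) and 1 in Tyk2DIEC tumors, where Rgs5 was lower (-0.53, SE 0.12). The summed level of the 10 pericyte genes was 131 to 222 CPM in Tyk2fl and 130 to 162 CPM in Tyk2DIEC. Of 12 hypoxia genes none passed in Tyk2KO (smallest p: Pgk1, -0.28, SE 0.06, adjusted p = 0.0643, edgeR) and Higd1a was lower in Tyk2DIEC tumors (-0.30, SE 0.09). Rgs5 passed in 11 of 11 fits that left out a library and Higd1a in 6 of 11, with losses without Tyk2DIEC replicates 1, 2 or 3 or Tyk2fl replicates 2 or 4.

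Other cell types moved in the same libraries. In Tyk2KO tumors 7 of 10 smooth muscle genes were lower, with a median of -1.28, among them Synpo2 (-1.31, SE 0.19), Acta2 (-0.72, SE 0.12), Cnn1 (-2.45, SE 0.42) and Tagln (-1.25, SE 0.22). Their summed level was 276 to 468 CPM in Tyk2wt and 137 to 210 CPM in Tyk2KO. The count of 7 fell to 2 without Tyk2wt replicate 1, 1 without Tyk2wt replicate 3, 2 without Tyk2KO replicate 1 and 0 without Tyk2KO replicate 2, and was 0 in the fit of all 17 libraries. The pan-leukocyte gene Ptprc (-1.10, SE 0.17), the T cell gene Cd3e (-1.58, SE 0.27) and Coro1a (-0.78, SE 0.14) were lower among 10 leukocyte genes (487 to 741 CPM in Tyk2wt, 397 to 525 in Tyk2KO). This count of 3 was 1 without Tyk2wt replicate 3 and 0 without Tyk2KO replicate 1 or 2; without Tyk2KO replicate 3 it was 2. The globin genes Hbb-bs (-0.90, SE 0.16) and Hbb-bt (-0.94, SE 0.20) were lower among 5 red cell genes, which summed to 43.4 to 51.4 CPM in Tyk2wt and 22.9 to 32.3 CPM in Tyk2KO, and the fibroblast gene Dpt was lower (-1.46, SE 0.14). The count of 2 red cell genes was 0 without Tyk2wt replicate 3 or Tyk2KO replicate 1 or 2, 1 without Tyk2wt replicate 1 or Tyk2KO replicate 3, and 0 in the fit of all 17 libraries (Hbb-bs 0.116 and Hbb-bt 0.389, adjusted p, edgeR). Dpt passed in 6 of 6 fits that left out a library, but it was the only call among 10 fibroblast genes. Of their estimates 5 were above and 5 below 0, with a median of 0.11. Their summed level was 1230 to 1640 CPM in Tyk2wt and 1110 to 1980 CPM in Tyk2KO. The part of these cells in the Aplnr difference was not tested.

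In Tyk2DIEC tumors 6 of 10 fibroblast genes were lower, with a median of -0.63, among them Lum (-1.19, SE 0.23), Dcn (-0.71, SE 0.15) and the collagen genes Col1a1 (-0.64, SE 0.14) and Col1a2 (-0.67, SE 0.15). Their summed level was 1360 to 2250 CPM in Tyk2fl and 1310 to 1650 CPM in Tyk2DIEC. Within groups Plvap followed the mean of the fibroblast list at r 0.79 (0.68 without the 2 farthest libraries). That was not particular to Plvap, since Cdh5 was at 0.86 (0.79), Pecam1 at 0.84 (0.62) and Kdr at 0.79 (0.77). The remaining members were lower, at 0.30 to 0.69. With the pericyte list Plvap was at 0.82 (0.72). The part of fibroblasts in the Plvap difference was not tested. The leukocyte genes Laptm5 (-0.40, SE 0.10) and Coro1a (-0.39, SE 0.11) were lower, as was the platelet gene Pf4 (-0.83, SE 0.22), while Ppbp was higher (2.51, SE 0.65, from 3.05 ± 2.16 to 17.4 ± 15.3 CPM, SD, n = 7 and 4). The 4 named fibroblast genes passed in 11 of 11 fits that left out a library. The count of 2 leukocyte genes was 1 without Tyk2DIEC replicate 2 or 4 and 0 without replicate 3. Pf4 was lost with Tyk2fl replicates 4 to 7 as controls (-0.75, adjusted p = 0.0564, edgeR; 0.00245 to 0.0952 over all alternatives) and without Tyk2DIEC replicates 2, 3 or 4, and Ppbp without Tyk2DIEC replicate 2 (0.061) or 3 (0.096). Smooth muscle genes had no call (smallest p: Myocd, 1.02, SE 0.36, adjusted p = 0.0631, edgeR).

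The 10 epithelial genes had no call in either experiment. The smallest p was that of Cdh17, an intestinal cadherin, with -0.17 (SE 0.10, adjusted p = 0.356, edgeR) in Tyk2KO and 0.24 (SE 0.11, adjusted p = 0.133, edgeR) in Tyk2DIEC tumors. Their summed level was 8950 to 15000 CPM over all libraries, and that of the 21 pan-endothelial genes was 221 to 331 CPM. These sums hold different genes and are not corrected for length, so they do not rank the lists. No red cell gene passed in Tyk2DIEC (smallest p: Alas2, 0.49, SE 0.26, adjusted p = 0.197, edgeR) and no platelet gene in Tyk2KO tumors (smallest p: Ppbp, 2.91, SE 1.06, adjusted p = 0.159, edgeR).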

How the data were processed

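RNA of AOM/DSS-induced colon tumors was measured in 17 libraries, grouped by the genotype label. The values are raw counts per gene as deposited: the authors sequenced directional poly(A) libraries single-end, aligned reads with STAR 2.6.1a (GRCm38/mm10 in the submitters' processing notes, while the methods print GRCh38) and counted them with STAR on Gencode annotation, without normalization or filter. The 17 columns of both series tables held the same values as the files of single libraries.

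Of the 55421 gene IDs, 54587 matched GENCODE vM21 (GRCm38) with version and 55154 without, and positions, exon lengths and overlaps come from it. Tests used edgeR 4.0.16 in R 4.3.3 (quasi-likelihood F test, two-sided) within each experiment, after filterByExpr (minimum count 10, minimum total 15) and TMM scaling, with Benjamini-Hochberg adjustment over all genes tested. The SE of a log2 difference is its size divided by the square root of F. The difference of changes and the control groups were tested as contrasts of the 4 group means over all 17 libraries. CPM were scaled by TMM over all 17 libraries, and log2 CPM for correlations used a prior count of 2. Promoter windows are RefSeq's (GRCm38.p6) and were searched on both strands; 4 of the 10 genes matched.

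The 10 genes and the 15 lists were chosen with earlier results of these data known. Named are all 10 genes, from each list and experiment up to 4 passing genes with the smallest adjusted p (otherwise the gene with the smallest p), and for each of the 10 the 3 genes of highest within-group r. Alternatives were DESeq2 1.42.0, RLE scaling, no filter or a minimum count of 50, leaving out each library, a replicate block, all libraries in 1 fit, and for the epithelial experiment Xist as a covariate, Tyk2fl replicates 4 to 7 and Tyk2fl counts thinned to the depth of Tyk2DIEC. Reads per exon, protein and histology were not analysed here. The steps were tested on simulated counts.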

Additional observations from a re-analysis of the deposited data

Results flagged for a closer look

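Among 20 groups of members tested for a library far from the rest, where chance flags about 1 in 20, Sox17 stood out at 92.7 CPM in Tyk2fl replicate 6 and at 129 CPM in Tyk2DIEC replicate 1. In the same libraries Ihh was at 90.2 and 90.8 CPM. Groups of 3 were not tested.

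Between the experiments the changes of Aplnr and Plvap differed by a test of the difference itself. The log2 change in Tyk2DIEC minus that in Tyk2KO was -1.98 for Aplnr (1.62 in Tyk2KO, -0.34 in Tyk2DIEC) and -0.87 for Plvap (0.36 in Tyk2KO, -0.50 in Tyk2DIEC). Both control groups differed for these genes too, by 1.27 and 0.95, and each experiment has its own controls.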

How the results depend on the processing

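With the replicate number as a block, 0 of the 10 genes passed in the germline, the epithelial and the difference test (1, 1 and 2 without it), and 0 passed with a change of over 2-fold in the germline test (1 without it). In this block the adjusted p of Aplnr and Plvap was 0.0633 and 0.0623 (differences of changes -1.62 with 0.0557 and -0.90 with 0.0534, edgeR), and 246, 1181 and 903 of all genes passed (453, 3515 and 1374 without it). Same-numbered libraries did not deviate together (r from -0.39 to 0.08), so the numbers are not taken to pair samples. Apln then turned to 0.01, 0.04 and 0.02 (germline, epithelial, difference) and Vwf to 0.08 (difference). With DESeq2 1222 of all genes passed in the germline test, and 5 of the 10 genes were higher in Tyk2fl than in Tyk2wt (3 with edgeR). Without a filter 1020 (germline), 868 (difference) and 1453 (control groups, 2219 otherwise) passed.

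Leaving out 1 library, between 0 and 1 of the 10 genes passed in the germline test, also with over 2-fold, 0 to 2 in the epithelial test (0 to 1 past 2-fold), 1 to 3 in the difference and 1 to 5 between control groups. Of all genes 114 to 822, 1632 to 3798, 584 to 1690 and 345 to 2806 passed; the lowest were without Tyk2KO replicate 2, Tyk2DIEC replicate 3, Tyk2KO replicate 2 and Tyk2wt replicate 3. Genes near 0 changed sign: in the germline test Apln (-0.20 to 0.30), Esm1 (-0.17 to 0.002), Sox17 (-0.25 to 0.22) and Vwf (-0.003 to 0.33), in the epithelial test Cdh5 (-0.05 to 0.15) and Vwf (-0.01 to 0.20), in the difference Vwf (-0.20 to 0.12) and between control groups Esm1 (-0.01 to 0.22). The cause was not tested. The fits that left out a library are not part of the following count. Of 240 values of the 10 genes under the other settings 228 kept direction and side of the threshold, 4 no longer passed, 4 now passed and 4 reversed. The lowest count of a member, 57, carries a counting error of 13.2%.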
